A study of Mus musculus with 22 samples.

Results

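The transcription factors that set position across the sheet of the early cerebral cortex were followed in the forebrain of E13.5 mouse embryos without *Prdm16*. All 9 rows of the gene count table that carry the symbol *Emx1*, *Emx2*, *Lhx2*, *Dmrta2*, *Dmrt3*, *Nr2f1*, *Nr2f2*, *Pax6* or *Sp8* were taken, out of 24421 genes. None of the 9 factors differed between KO and control forebrains beyond the spread among embryos. The groups overlapped for all 9 of them, and the largest estimated difference was 1.22-fold (*Nr2f2*).

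The study asked how PRDM16, a transcriptional regulator of cortical radial glia, shapes gene expression in the developing brain, and RNA-seq was 1 of its assays. The KO group held 3 embryos homozygous for a *Prdm16* mutation. The control group held 3 littermates, which the labels describe as either heterozygous or wild type and the methods call wild type, so the controls may carry 1 mutant allele. The *Prdm16* alleles of the study are gene traps (cGT and its re-inverted form cGTreinv) kept on an FVB/NJ outcross. Both are null alleles that need no Cre, and the study calls animals with either of them KO. Which of them these 3 embryos carried is not stated. Each count column carries 1 animal number, so each library was taken as 1 embryo, and no treatment was given. The labels and the study's Results name the tissue as forebrain, whereas its methods name dissected cortex. Ventral telencephalon markers, among them *Dlx2* and *Nkx2-1*, were present in every library beside the cortical factors, so the samples were not dorsal cortex alone. All CPM values are counts scaled to the depth of the library and were normalised with the trimmed mean of M-values (TMM). Because these are bulk samples, fewer cells of a type and less RNA per cell cannot be told apart.

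The depth was 16638433 to 41140614 counts in KO and 28569526 to 43066648 counts in control. The targeted gene *Prdm16* was at 9.60, 6.58 and 6.82 CPM in KO libraries, against 58.2, 45.0 and 37.9 CPM in control libraries, so every library matched its label (log2 fold change −2.61±0.22 (s.e.), edgeR adjusted *P*=0.0536, DESeq2 adjusted *P*=7.08e-24). A pair of libraries stood apart. KO F731 was the shallowest, with 22991 genes detected, against 17795 to 18320 in the other 5 libraries. It also held 7.39% of its counts in *Rn45s*, a ribosomal RNA gene, against at most 2.43% in the others, and its summed level of 8 blood and microglia markers was 3164 CPM against 982.4 to 1271 CPM. Control F724 had a low summed level of cortical hem genes, as described beside those genes.

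Cortical areas arise from a map laid down in the progenitors before neurons are made. Signalling centres at the edges of the cortical sheet, namely rostral FGF sources and the caudal-medial cortical hem, which secretes WNTs and BMPs, set up graded expression of transcription factors, and these factors cross-repress one another and instruct areal fate. EMX2 is high caudally and medially and favours caudal areas, and PAX6 is high rostrally and laterally and favours rostral areas. The nuclear receptors NR2F1 (COUP-TFI) and NR2F2 (COUP-TFII) are high caudally, NR2F1 also laterally. SP8 is a zinc-finger factor of the rostral-medial cortex that acts together with FGF8. DMRTA2 (also called DMRT5) and DMRT3 are doublesex-related factors of the caudal-medial cortex that act downstream of hem signals. LHX2 is a LIM-homeodomain selector that gives progenitors cortical identity and keeps them from hem fate, and EMX1 is a homeodomain factor of the whole dorsal pallium. For comparison, *Pax6* and *Sp8* were taken as the rostral or lateral factors and the other 7 as medial-caudal factors. *Emx1*, *Lhx2* and *Sp8* fit this division least well, and *Nr2f1*, also high laterally, fits it only by its caudal expression. Bulk forebrain carries no position by which the division could be checked.

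The 9 genes lie on 7 chromosomes of the mouse genome (GRCm38). *Emx2* (chr19:59458690-59465357, plus strand) and *Dmrt3* (chr19:25610246-25623921, plus strand) share chromosome 19, and *Pax6* (chr2:105668896-105698410, plus strand) and *Lhx2* (chr2:38339271-38369737, plus strand) share chromosome 2. *Emx1* is at chr6:85187931-85204463 (plus), *Dmrta2* at chr4:109977989-109983691 (plus), *Nr2f1* at chr13:78188971-78198873 (minus), *Nr2f2* at chr7:70351946-70366746 (minus) and *Sp8* at chr12:118846288-118852578 (plus). The 250 bases before the start of each gene in a table of RefSeq promoters (the start farthest 5′ where it lists several) were searched, on both strands and allowing overlapping matches, for TAATTA (the core bound by many homeodomain proteins), AGGTCA (the nuclear receptor half-site) and GGGCGG (the GC box bound by SP and KLF zinc fingers). The GC box was found before 4 of the 9 genes (*Emx1*, *Emx2*, *Lhx2* and *Nr2f1*), against 32.7% of all 32851 RefSeq promoters of this length. TAATTA was found before 0 of the 9 genes (4.84% of all promoters), and AGGTCA before 0 of the 9 (14.0%). For *Lhx2*, *Dmrta2* and *Sp8* the gene span given above begins within the window searched, and for *Dmrt3* it begins before the window, which lies wholly inside the span.

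The upstream stretch is shown for *Lhx2*, the most abundant factor, and for the rostral factor *Pax6*, as examples with and without a match. Neither stretch holds an exon of the GENCODE annotation. The sequences are from RefSeq (GRCm38.p6) on the plus strand, at chr2:38339031-38339280 for *Lhx2* and chr2:105668646-105668895 for *Pax6*. Capitals mark the GC box on either strand, with 4 matches before *Lhx2* and none of the 3 motifs before *Pax6*. The share of G and C was 72.8% before *Lhx2* and 60.8% before *Pax6*. Before *Sp8* it was 40.8%, also with no match.
Lhx2: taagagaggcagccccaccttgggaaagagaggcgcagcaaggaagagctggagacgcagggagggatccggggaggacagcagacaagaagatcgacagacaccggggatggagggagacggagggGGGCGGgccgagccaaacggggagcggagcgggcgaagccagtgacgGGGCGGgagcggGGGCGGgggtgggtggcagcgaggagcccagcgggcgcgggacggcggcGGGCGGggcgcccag
Pax6: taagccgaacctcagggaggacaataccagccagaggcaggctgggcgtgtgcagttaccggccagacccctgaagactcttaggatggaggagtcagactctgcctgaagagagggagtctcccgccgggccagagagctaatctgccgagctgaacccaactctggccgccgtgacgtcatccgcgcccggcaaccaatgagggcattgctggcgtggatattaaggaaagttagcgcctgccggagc

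Expressed per kilobase of exon, which allows levels to be set side by side between genes, *Lhx2* was the most abundant of the factors and *Sp8* the least. *Lhx2* averaged 147.1±28.7 CPM per kb in KO and 151.0±27.5 CPM per kb in control (s.d., *n*=3 each, as for all means here). In control forebrains it was followed by *Nr2f1* at 116.4±16.4, *Emx1* at 86.8±16.7, *Pax6* at 35.4±4.01 and *Emx2* at 33.2±6.99 CPM per kb. The lower end of the control order was *Dmrta2* at 27.3±4.81, *Nr2f2* at 19.4±4.94, *Dmrt3* at 9.14±2.86 and *Sp8* at 6.83±0.398 CPM per kb. Of these neighbours, only *Emx1* and *Pax6*, and *Nr2f2* and *Dmrt3*, had control values that did not overlap. The KO order was the same except that *Emx2* (34.3±7.87 CPM per kb) stood above *Pax6* (31.9±5.69 CPM per kb), 2 genes whose values overlapped in both genotypes.

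Between KO and control, all 9 factors passed the filter on low counts, with 375 to 20134 reads per gene and library. None passed an adjusted *P* of 0.05 in edgeR's quasi-likelihood test, in which 0 of 15027 tested genes did (0.0%). By DESeq2, 0.115% of 15632 genes passed (18 genes), again without any of the 9. At an unadjusted *P* under 0.05 the count was 0 of 9, beside 1.92% of all tested genes (289 genes) in edgeR, and it was 0 of 9 in DESeq2 and in limma-voom too. The values of the KO embryos overlapped those of the controls for each of the 9 factors, whereas 7.41% of all tested genes (1114 genes) had groups that did not overlap. These *P*-values set the difference between KO and control against the spread between embryos within each group.

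**Figure D1:**
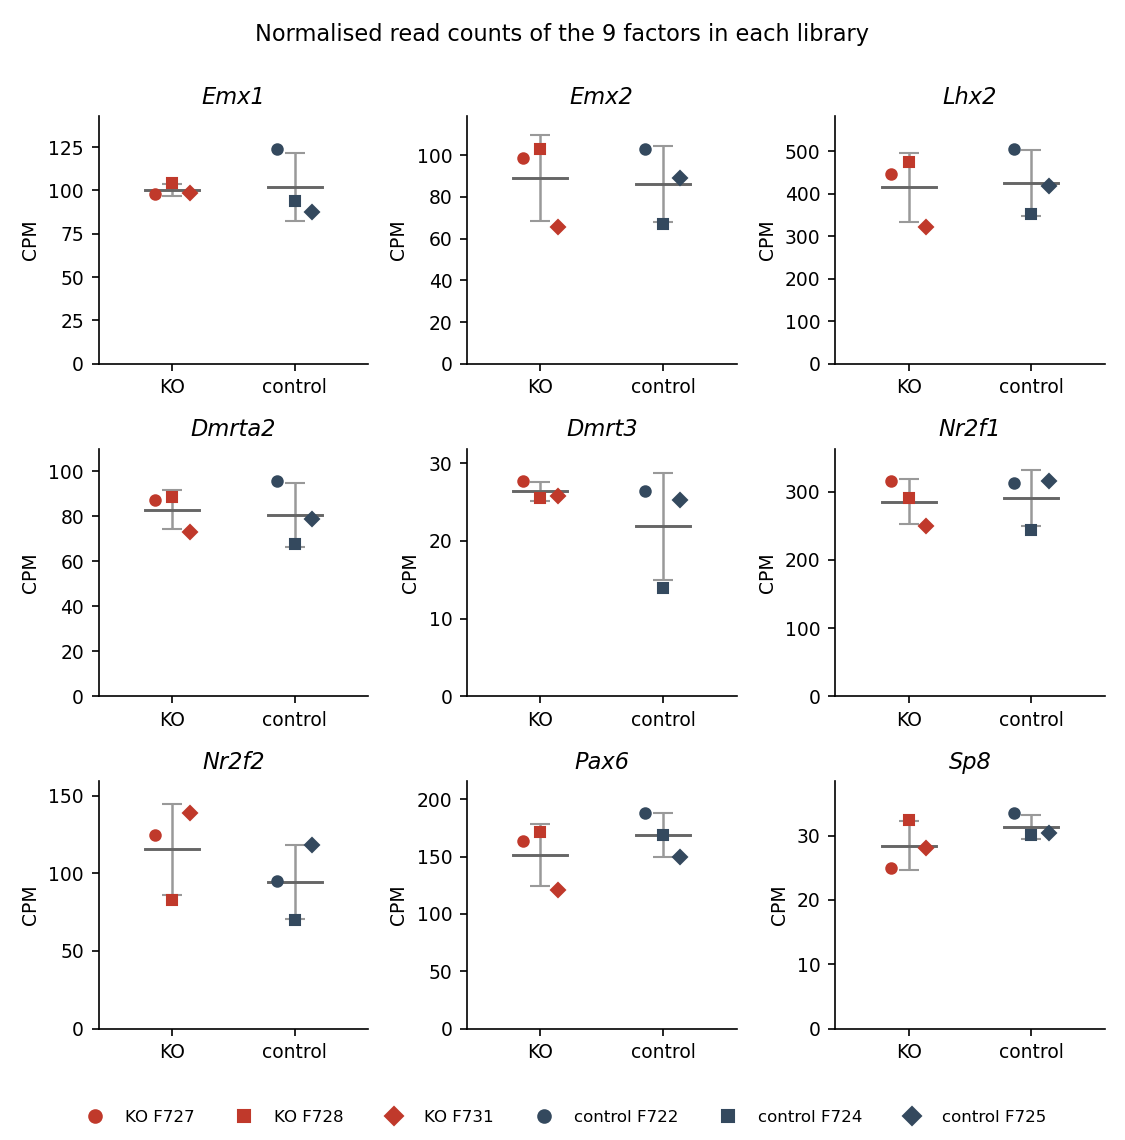
Normalised read counts (CPM, linear axes from 0) of the 9 factors in 3 KO libraries (red) and 3 control libraries (dark blue). Each point is 1 library, horizontal lines are means and error bars are s.d. The groups overlap in every panel, and control F724 (dark blue square) is the lowest control in 7 of the 9.

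Among the medial-caudal factors, *Emx2* was at 98.4, 103.1 and 65.6 CPM in KO libraries F727, F728 and F731, against 102.9, 66.9 and 89.0 CPM in control libraries F722, F724 and F725. Each genotype thus held 1 low embryo, KO F731 and control F724, and the groups overlapped. The mean was 89.0±20.4 CPM in KO and 86.3±18.2 CPM in control (log2 fold change 0.05±0.21 (s.e.), edgeR adjusted *P*=0.952). The 95% confidence interval of the KO level ran from 0.733-fold to 1.46-fold of control. The log2 fold change was −0.11 without control F724 and 0.23 without KO F731.

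*Lhx2* had the same high and low embryos, with 447.5, 474.6 and 322.6 CPM in KO libraries and 506.4, 351.9 and 418.9 CPM in control libraries. Its log2 fold change was −0.04±0.19 (edgeR adjusted *P*=0.958), with an interval of 0.722-fold to 1.32-fold, and it was 0.12 without KO F731 and 0.10 without control F722. Of 15017 other tested genes with reads in every library, *Lhx2* was the second nearest to *Emx2* over the 6 libraries. Its root mean square difference from *Emx2* was 0.07 in centred log2 CPM, beside a median of 0.33 over those genes. The other near neighbours of *Emx2* were *E230016M11Rik* (0.05) and the small nucleolar RNA *Snord52* (0.07), which had 1.03 to 1.67 and 2.12 to 3.18 CPM, far below the level of *Emx2*. *Dmrta2* was rank 72, *Nr2f1* rank 157 and *Pax6* rank 1419. These ranks are a description over 6 libraries, in which all genes share the depth and tissue composition of each embryo.

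*Dmrta2* was at 87.1, 88.6 and 73.0 CPM in KO libraries, against 95.6, 67.5 and 78.5 CPM in control libraries. The lowest embryos were again KO F731 and control F724. The log2 fold change was 0.04±0.15 (edgeR adjusted *P*=0.937), with an interval of 0.809-fold to 1.31-fold, and it was −0.07 without control F724 and 0.18 without control F722.

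Its relative *Dmrt3* was at 27.7, 25.5 and 25.8 CPM in KO libraries, against 26.4, 14.0 and 25.2 CPM in control libraries. A single embryo, control F724, set the difference between the groups, since the other 5 lay within 25.2 to 27.7 CPM. The log2 fold change was 0.27±0.23 (edgeR adjusted *P*=0.863), and without control F724 it was 0.03. The interval with all libraries ran from 0.834-fold to 1.75-fold.

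*Emx1* was at 97.7, 104.2 and 98.8 CPM in KO libraries, against 124.1, 93.9 and 87.4 CPM in control libraries. The KO values lay inside the control range. The mean was 100.2±3.47 CPM in KO and 101.8±19.6 CPM in control, for a log2 fold change of −0.02±0.14 (edgeR adjusted *P*=0.966) and an interval of 0.782-fold to 1.24-fold. Without control F722 it was 0.14.

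The COUP-TF genes differed from each other in their spread. *Nr2f1* was at 315.6, 290.7 and 249.6 CPM in KO libraries, against 313.3, 243.5 and 315.2 CPM in control libraries. Its low embryos were KO F731 and control F724, as for *Emx2*, and its log2 fold change was −0.03±0.14 (edgeR adjusted *P*=0.961; interval 0.781-fold to 1.23-fold). It was 0.06 without KO F731, 0.03 without control F722 or control F725, and −0.14 without control F724.

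*Nr2f2*, which also marks the caudal ganglionic eminence of the ventral telencephalon, was at 124.8, 82.7 and 138.6 CPM in KO libraries, against 95.2, 70.1 and 118.2 CPM in control libraries. Here KO F731 was the highest library, not the lowest, and KO F728 lay among the controls. The mean was 115.4±29.1 CPM in KO and 94.5±24.1 CPM in control. The log2 fold change of 0.29±0.24 was the largest of the 9 but did not pass the test (edgeR adjusted *P*=0.863), and its interval ran from 0.829-fold to 1.80-fold. It depended on single libraries, being 0.11 without control F724, 0.14 without KO F731, 0.47 without KO F728 and 0.48 without control F725, and passed an unadjusted *P* of 0.05 in none of these. KO F731 also had the highest summed endothelial markers (128.6 CPM, against 67.9 to 91.4 CPM) and meninges and mesenchyme markers (104.8 CPM, against 33.5 to 86.2 CPM). KO F727, next highest for *Nr2f2*, had 76.4 and 33.5 CPM of these. The part of such tissue in *Nr2f2* was not tested.

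The rostral or lateral factors had lower KO means, within the spread. *Pax6* was at 163.3, 171.2 and 120.9 CPM in KO libraries, against 187.7, 169.0 and 149.6 CPM in control libraries. KO F731 was the lowest of the 6, and the other KO values lay inside the control range. The mean was 151.8±27.1 CPM in KO and 168.8±19.1 CPM in control (log2 fold change −0.15±0.16, edgeR adjusted *P*=0.863; interval 0.701-fold to 1.16-fold). Without KO F731 the log2 fold change was −0.013.

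*Sp8* was at 24.9, 32.4 and 28.1 CPM in KO libraries, against 33.4, 30.1 and 30.5 CPM in control libraries. Its control values were the tightest of the 9, with a highest to lowest ratio of 1.11. KO F727 and KO F731 lay below every control and KO F728 lay among them. The log2 fold change was −0.14±0.13 (edgeR adjusted *P*=0.863), with an interval of 0.737-fold to 1.12-fold, and it was −0.052 without KO F727. The genes nearest to *Pax6* over the 6 libraries were *Abhd16a* (root mean square difference 0.03), *Pde1b* (0.03) and *Ift80* (0.04), beside a median of 0.26 over tested genes with reads in every library.

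**Figure D2:**
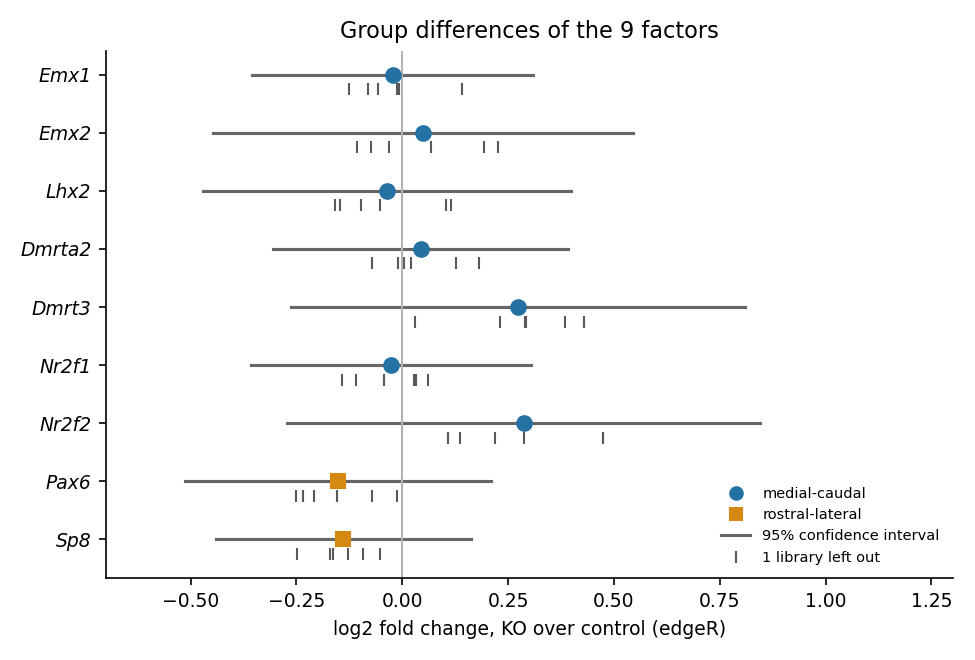
Log2 fold change, KO over control, of the 9 factors from edgeR, with 95% confidence intervals (lines). Circles are medial-caudal and squares rostral or lateral factors, and the ticks under each line are the estimates with 1 library left out. All 9 intervals include 0, and for 5 genes (*Emx1*, *Emx2*, *Lhx2*, *Dmrta2* and *Nr2f1*) the ticks lie on both sides of 0.

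Reading the sets against each other, 4 of the 7 medial-caudal factors had a log2 fold change above 0 (median 0.04), and both rostral or lateral factors had one below 0 (median −0.15), beside a median of −0.0037 over all tested genes. The first count moved with single libraries. It was 2 of 7 without control F724 (median −0.08) and 7 of 7 without control F722 (median 0.18). *Pax6* and *Sp8* stayed below 0 with any 1 library left out, with medians of −0.25 to −0.07.

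A pair of opposed ratios was compared within each library, where scaling between libraries cancels. The log2 ratio of *Emx2* to *Pax6* was −0.73, −0.73 and −0.88 in KO libraries, against −0.87, −1.34 and −0.75 in control libraries. The KO mean was −0.78±0.09 and the control mean −0.98±0.31, a difference of 0.20 that did not pass a two-sided exact permutation test (*P*=0.3, adjusted over both pairs *P*=0.6). With 3 embryos against 3 this test cannot go below 0.1. Control F724 had the lowest ratio, and the difference was 0.03 without it.

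The log2 ratio of *Nr2f1* to *Sp8* was 3.66, 3.17 and 3.15 in KO libraries, against 3.23, 3.01 and 3.37 in control libraries. KO F727 was high and the other KO libraries lay inside the control range. The means were 3.33±0.29 in KO and 3.20±0.18 in control, with a difference of 0.12 (exact permutation *P*=0.7, adjusted *P*=0.7) that turned to −0.05 without KO F727.

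The balance, taken as the mean log2 CPM of the 7 medial-caudal factors minus that of *Pax6* and *Sp8*, was 0.94, 0.64 and 0.84 in KO libraries, against 0.66, 0.27 and 0.75 in control libraries. Control F724 was again the lowest. The difference in means was 0.25 as a description, and 0.10 without control F724.

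**Figure D3:**
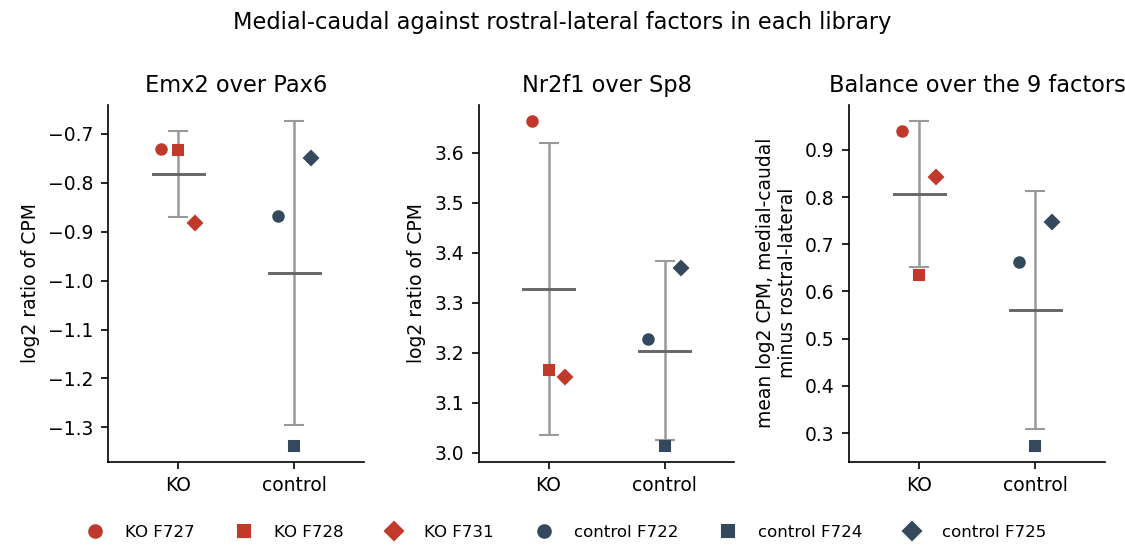
Opposed factors within each library, with KO in red and control in dark blue. The left and middle panels show the log2 ratio of CPM of *Emx2* to *Pax6* and of *Nr2f1* to *Sp8*, and the right panel the mean log2 CPM of the 7 medial-caudal factors minus that of *Pax6* and *Sp8* (lines are means, error bars s.d., axes do not start at 0). Control F724 (dark blue square) is the lowest library in all 3 panels.

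Much of the variation was between embryos of 1 genotype. Control F724 was the lowest control for 7 of the 9 factors (*Emx2*, *Lhx2*, *Dmrta2*, *Dmrt3*, *Nr2f1*, *Nr2f2* and *Sp8*), beside 34.1% of all tested genes, and control F722 was the highest control for 7 of 9, beside 39.3%. KO F731 was the lowest KO for 5 of 9 (*Emx2*, *Lhx2*, *Dmrta2*, *Nr2f1* and *Pax6*), beside 44.3% of all tested genes. The highest control exceeded the lowest by 1.89 times for *Dmrt3*, 1.69 times for *Nr2f2* and 1.54 times for *Emx2*, each more than the estimated difference between genotypes.

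The hem signals differed widely between control embryos. The summed level of 11 hem genes, chiefly WNT and BMP ligands and the R-spondins that boost WNT signalling, was 130.9, 108.1 and 136.4 CPM in KO libraries, against 101.8, 37.7 and 115.9 CPM in control libraries. Control F724 was far below the other 5 libraries. In it the hem ligand *Wnt3a* was at 0.179 CPM and the roof plate and hem regulator *Lmx1a* at 0.268 CPM, against at least 4.59 CPM of *Wnt3a* and 3.82 CPM of *Lmx1a* in the other 5. All 11 genes had a log2 fold change above 0 (median 0.59, beside −0.0037 over all genes), yet 0 of 11 passed an adjusted or an unadjusted *P* of 0.05 in edgeR, and without control F724 the count was 10 of 11 and the median 0.18. *Rspo3* was at 34.5, 25.3 and 34.7 CPM in KO libraries, against 24.8, 11.2 and 27.0 CPM in control libraries (log2 fold change 0.59±0.31, edgeR adjusted *P*=0.863; 0.28 without control F724). *Wnt8b*, a ligand of the hem and the adjoining hippocampal field, was at 16.8, 14.2 and 16.0 CPM in KO libraries, against 11.8, 2.92 and 13.0 CPM in control libraries, and was the 1 hem gene of 11 whose groups did not overlap (log2 fold change 0.77±0.47, edgeR adjusted *P*=0.863; 0.34 without control F724). Over all tested genes, 7.41% had groups that did not overlap. *Bmp7* was at 8.06, 10.6 and 10.4 CPM in KO libraries, against 8.94, 8.15 and 8.09 CPM in control libraries. Its log2 fold change was 0.20±0.15 (0.32 without KO F727). *Bmp7* was thus not low in control F724, nor was *Bmp4*, at 0.379 CPM there against 0.261 and 0.408 CPM in controls F722 and F725. The other hem genes were each lowest of all libraries in control F724. Control F724, with its low hem sum, was also the lowest control for *Emx2*, *Dmrta2*, *Dmrt3*, *Lhx2*, *Nr2f1*, *Nr2f2* and *Sp8*. KO F731, however, had the highest hem sum (136.4 CPM) and the lowest *Emx2* of all libraries (65.6 CPM). The part of the hem level in the values of the factors was not tested.

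The rostral FGF list went the other way in the same embryo. The summed level of 11 FGF ligands and response genes was 120.9, 171.4 and 114.4 CPM in KO libraries, against 145.4, 206.4 and 135.9 CPM in control libraries, with control F724 the highest. Of these genes, 2 of 11 had a log2 fold change above 0 (median −0.15) and 0 passed an adjusted or an unadjusted *P* of 0.05, and without control F724 the count was 7 of 11 and the median 0.0048. *Etv1*, an ETS factor induced by FGF, was at 19.4, 24.6 and 20.6 CPM in KO libraries, against 21.8, 36.1 and 28.7 CPM in control libraries (log2 fold change −0.42±0.20, edgeR adjusted *P*=0.863; −0.23 without control F724). *Etv1* passed an unadjusted *P* of 0.05 only without KO F728 (−0.54) or without control F722 (−0.59). The ligand *Fgf15* had a log2 fold change of −0.38±0.34, which was −0.15 without KO F727, −0.21 without KO F731, −0.20 without control F724 and −0.91 without KO F728, the last alone passing an unadjusted *P* of 0.05. The MAPK phosphatase *Dusp6* had a log2 fold change of −0.23±0.21, which was 0.00032 without control F724 and −0.42 without control F725.

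**Figure D4:**
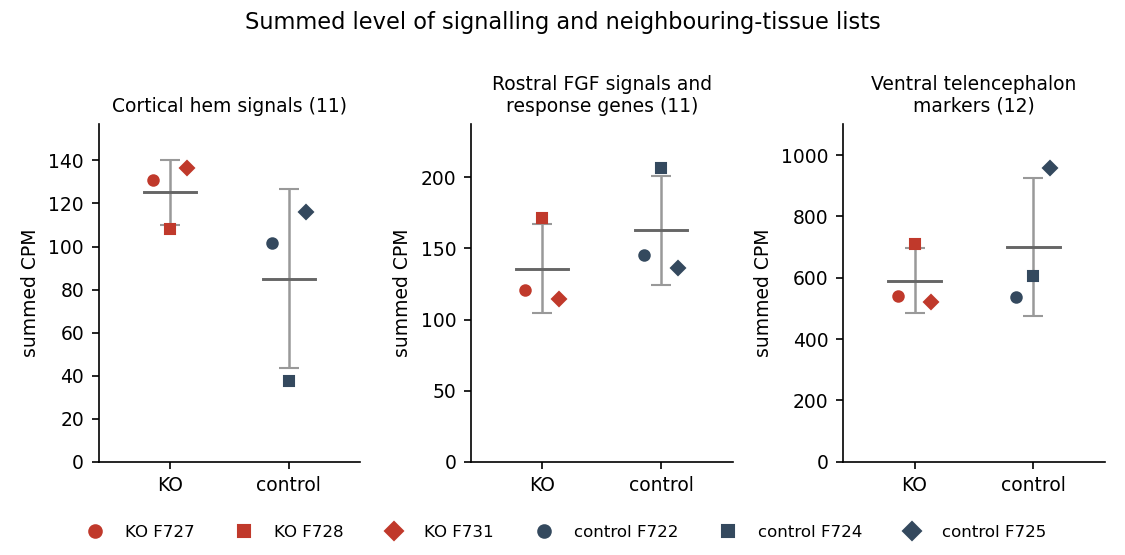
Summed CPM (linear axes from 0) of 11 cortical hem genes, 11 rostral FGF ligands and response genes and 12 ventral telencephalon markers in each library, KO in red and control in dark blue, with means (lines) and s.d. (error bars). Control F724 (dark blue square) has the lowest hem sum and the highest FGF sum, and control F725 (dark blue diamond) the highest ventral sum.

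Antihem genes, area markers and further patterning factors were read in the same way. Of 6 antihem genes, which mark the lateral boundary of the pallium, 2 had a log2 fold change above 0 (median −0.11). The homeobox gene *Dbx1* was at 3.49, 5.56 and 4.20 CPM in KO libraries, against 1.51, 2.83 and 2.92 CPM in control libraries, groups that did not overlap (log2 fold change 0.87±0.31). It passed an unadjusted *P* of 0.05 in edgeR but not an adjusted one (adjusted *P*=0.863), and missed the unadjusted threshold too without KO F728 (0.65) or without control F722 (0.62). The antihem ligand *Fgf7* was at 0.895 to 1.24 CPM in KO libraries, against 1.47 to 2.15 CPM in control libraries, lower in KO with no overlap, and did not pass an unadjusted *P* of 0.05 (log2 fold change −0.65±0.29). The ligand *Tgfa* overlapped between the groups and did not pass either (−0.23±0.16; −0.14 without control F724). Of 10 area marker genes, 4 were above 0 (median −0.07; 7 of 10 and median 0.04 without control F724). *Cyp26b1*, which encodes an enzyme that degrades retinoic acid, was at 20.7, 14.6 and 17.6 CPM in KO libraries, against 8.27, 13.0 and 10.6 CPM in control libraries, and did not overlap either (log2 fold change 0.73±0.20). It likewise passed only the unadjusted threshold (edgeR adjusted *P*=0.863). *Crym* (0.59±0.32; 0.31 without KO F731) and the cadherin gene *Cdh8* (−0.39±0.22; −0.24 without KO F731) did not pass an unadjusted *P* of 0.05 with all libraries. Both passed it without control F722 (*Crym* 0.85, *Cdh8* −0.55), and *Cdh8* also without KO F727 (−0.59). Of 23 further cortical patterning transcription factors, 10 were above 0 (median −0.06) and 0 passed an unadjusted *P* of 0.05, the 3 with the smallest *P*-values being the TALE homeodomain gene *Pbx3* (log2 fold change −0.21±0.10), the zinc-finger gene *Zic1* (−0.50±0.28) and the LIM-homeodomain gene *Lhx9* (0.25±0.14). *Pbx3* was at 91.7, 85.4 and 88.0 CPM in KO libraries, against 100.4, 95.02 and 111.5 CPM in control libraries, and was the 1 gene of the 23 whose groups did not overlap. It passed an unadjusted *P* of 0.05 only without KO F731 (−0.21). *Zic1* was −0.29 without KO F731 and −0.89 without KO F728, where it passed the unadjusted threshold, and *Lhx9* was 0.13 without KO F727. No gene of these lists passed an adjusted *P* of 0.05 in edgeR or DESeq2. Groups did not overlap for 1 of 10 area markers, 1 of 23 further factors and, among 6 antihem genes, 1 higher and 1 lower. Over all tested genes 7.41% had groups that did not overlap, and 1.92% passed an unadjusted *P* of 0.05 in edgeR.

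Markers of tissue next to the cortex varied between embryos as well. The summed level of 12 ventral telencephalon markers was 539.9, 711.4 and 520.9 CPM in KO libraries, against 538.6, 604.8 and 957.6 CPM in control libraries. Of the 12, 2 had a log2 fold change above 0 (median −0.23), against 9 of 12 (median 0.07) without control F725. Control F725, the highest of these, was the lowest control for *Pax6* and *Emx1*, 2 of the 9 factors, beside 24.4% of all tested genes. It was the highest control for *Nr2f2*, and for *Nr2f1* by little (315.2 CPM, against 313.3 CPM in control F722). KO F728, the KO library highest for the ventral markers, was the lowest KO for *Nr2f2* (82.7 CPM). It was the highest KO for 6 of 9 factors, *Pax6* and *Emx1* among them, beside 24.6% of all tested genes. The 8 markers of pallial neurons and intermediate progenitors summed to 1654, 1536 and 1395 CPM in KO libraries, against 1880, 2039 and 1523 CPM in control libraries. These sums overlapped, and 0 of 8 had a log2 fold change above 0 (median −0.22), against 1 of 8 (median −0.12) without control F724. Of these 8 and the 12 ventral markers, 0 passed an unadjusted *P* of 0.05 in edgeR, beside 1.92% of all tested genes. Groups did not overlap for 0 of them, beside 7.41% of all tested genes. The 8 radial glia markers summed to 3202, 3498 and 3418 CPM in KO libraries, against 3066, 2958 and 2916 CPM in control libraries. *Pax6* is 1 of these 8 markers and also 1 of the 9 factors. Of the 8, 1 passed an unadjusted *P* of 0.05 in edgeR, beside 1.92% of all tested genes, and 0 passed an adjusted one. The sums did not overlap, but the most abundant genes weigh most in them: log2 fold changes were positive for 5 of the 8 and negative for 3 (median 0.17; 0.08 without control F724 or without KO F728), and the groups did not overlap for 2 of 8, beside 7.41% of all tested genes. The part of tissue composition in the 9 factors was not tested.

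Several of the 9 genes have antisense neighbours, and as the strand setting of the counting is not given in the sources used here, reads of overlapping transcripts cannot be told apart. *Emx2os* starts on the opposite strand, 55 bases before the RefSeq start of *Emx2*. It was at 8.69, 8.51 and 4.06 CPM in KO libraries, against 9.90, 5.33 and 7.51 CPM in control libraries (log2 fold change −0.07, edgeR adjusted *P*=0.955; −0.28 without control F724 and 0.19 without KO F731), with the same low embryos as *Emx2*. *Pax6os1*, which overlaps *Pax6*, was at 1.38, 1.41 and 2.07 CPM in KO libraries, against 1.63, 1.54 and 0.917 CPM in control libraries (log2 fold change 0.22, edgeR adjusted *P*=0.872; 0.02 without KO F731 and 0.0063 without control F725). *A830082K12Rik*, which overlaps *Nr2f1*, was at 18.0, 16.1 and 15.0 CPM in KO libraries, against 16.6, 13.4 and 14.2 CPM in control libraries (log2 fold change 0.16, edgeR adjusted *P*=0.863; 0.09 without control F724). The lowest KO and control embryos were the same for *A830082K12Rik* as for *Nr2f1*, KO F731 and control F724.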

How the data were processed

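Read counts per gene were deposited by the authors as raw counts: reads were trimmed with Trimmomatic and aligned to mm10 with HISAT2, and genes were taken from the iGenomes UCSC annotation. How reads were counted, with which strand setting and which rule for multimapping, is not given in the sources used here. As for samples, 6 forebrain columns served as unnumbered replicates, and 18 columns of other samples were not used. The labels name poly(A) RNA, the methods a total RNA kit.

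Genes were filtered with filterByExpr (minimum count 10), scaled by TMM and tested with edgeR 4.0.16 (glmQLFit, robust, and glmQLFTest) in R 4.3.3, with Benjamini-Hochberg adjustment over 15027 genes and a threshold of 0.05. The test was checked on simulated counts, drawn from a profile common to all libraries apart from changes set in KO. Differences in tissue composition between libraries were not part of that check, so it does not show what could be detected here. Alternatives were DESeq2 1.42.0 (the study's tool), limma-voom (limma 3.58.1), other scalings and filters, and each library left out. Ratios were compared with exact permutation tests. Exon lengths and sequences came from RefSeq (GRCm38.p6). The members and lists were chosen with earlier results of these data known. Named genes were all 9 factors, up to 3 genes per list with the smallest edgeR *P*, antisense genes, the 3 nearest to *Emx2* and *Pax6*, and *Prdm16*. Values of *Wnt3a*, *Lmx1a* and *Bmp4* were added after they were seen.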

Additional observations from a re-analysis of the deposited data

How the results depend on the processing

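No factor passed the threshold, adjusted or not, under any of 13 alternatives (DESeq2, limma-voom, 2 other scalings, 3 other filters and each of the 6 libraries left out). With upper-quartile scaling *Emx1* had a log2 fold change of 0.0040 instead of −0.02. Leaving out 1 library moved 5 estimates across 0: *Emx1* from −0.13 to 0.14, *Emx2* from −0.11 to 0.23, *Lhx2* from −0.16 to 0.12, *Dmrta2* from −0.072 to 0.18 and *Nr2f1* from −0.14 to 0.061. *Dmrt3* (0.03 to 0.43) and *Nr2f2* (0.11 to 0.48) stayed above 0, and *Pax6* (−0.25 to −0.01) and *Sp8* (−0.25 to −0.05) below it, in those 13 alternatives. The difference in the *Nr2f1* to *Sp8* ratio ran from −0.046 to 0.21 and that in the *Emx2* to *Pax6* ratio from 0.03 to 0.32 with 1 library left out. The count of factors whose groups did not overlap then ran from 0 to 2: *Nr2f2* and *Sp8* without KO F728 (18.0% of all genes), and *Emx1* and *Dmrt3* without control F722 (28.6%). Counts of the other gene lists with 1 library left out were chosen after seeing the data. No paired analysis was possible because the count columns carry animal numbers and not the replicate numbers of the labels. With 3 embryos a group, the confidence intervals leave changes of up to 1.80-fold undecided.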
